A study of Mus musculus with 12 samples.

Results

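The TAM receptors and their bridging ligands are 6 genes of the 40597 loci in the deposited expression table. They are the receptor tyrosine kinases Mertk, Axl and Tyro3, which form the TAM family, and the bridging proteins Gas6, Pros1 and Mfge8. They were chosen by name, and each was found at a locus of its own, joined to no other gene. RNA came from primary hypothalamic neurospheres, floating clusters of neural stem and progenitor cells, grown from C57Bl/6 mouse fetuses of embryonic day 14.5. At passage 3 the cultures were given 100 nM dexamethasone, a synthetic glucocorticoid, or the same volume of ethanol vehicle for 4 hours. The 4 groups were male vehicle, male dexamethasone, female vehicle and female dexamethasone cultures, with 3 libraries in each and 12 in all; every group shared the strain, fetal age, passage and ethanol exposure, and no genetic change is given in the labels. The design calls the 3 libraries biological replicates, but does not say whether they came from separate fetuses, litters or cultures; p-values therefore measure only the spread between these libraries, which may be technical.

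TAM receptors clear dying cells. Gas6 and protein S, the product of Pros1, bind phosphatidylserine on the surface of an apoptotic cell with their vitamin K-dependent end and a TAM receptor with the other; Mertk and Tyro3 take either ligand and Axl takes Gas6. Mfge8 also binds phosphatidylserine but hands the dying cell to alpha-v integrins. In the brain Mertk is known from microglia and astrocytes, where it serves the uptake of dead cells and synapses, Tyro3 is the TAM receptor typical of neurons, and glucocorticoids are known to raise Mertk in macrophages.

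The genes lie on 4 chromosomes of the GRCm38 build. Mertk spans chr2:128698903-128803009 and Tyro3 chr2:119797733-119818173, both on the plus strand. Axl spans chr7:25757079-25788705 and Mfge8 chr7:79133726-79194300, both on the minus strand. Gas6 spans chr8:13465374-13494535 on the minus strand, and Pros1 chr16:62854307-62929346 on the plus strand. In GENCODE M21 the Gas6 locus overlaps the end of Tmem255b on the other strand, and the Mfge8 locus of 60575 bases runs well beyond the 15293 bases of the annotated gene. The 250 bases before the RefSeq start of each of the 3 receptor genes are printed here because the receptors form 1 gene family of which only Mertk was called under dexamethasone. They are from RefSeq on GRCm38.p6, 5′ to 3′ along the gene, with every GC box (GGGCGG on either strand, so CCGCCC on the printed one) in capitals. The windows are chr2:128698665-128698914 (plus) for Mertk, chr7:25788734-25788983 (minus) for Axl and chr2:119799264-119799513 (plus) for Tyro3; the Tyro3 window lies inside the GENCODE gene.
Mertk: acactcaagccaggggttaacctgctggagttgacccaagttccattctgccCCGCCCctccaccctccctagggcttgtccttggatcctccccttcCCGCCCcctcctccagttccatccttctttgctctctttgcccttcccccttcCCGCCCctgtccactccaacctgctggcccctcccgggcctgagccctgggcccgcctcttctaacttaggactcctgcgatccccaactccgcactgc
Axl: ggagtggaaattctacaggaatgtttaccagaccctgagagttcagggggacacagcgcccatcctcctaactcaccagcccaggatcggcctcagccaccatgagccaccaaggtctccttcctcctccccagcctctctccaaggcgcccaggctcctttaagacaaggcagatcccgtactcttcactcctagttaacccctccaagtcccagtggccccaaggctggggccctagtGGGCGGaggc
Tyro3: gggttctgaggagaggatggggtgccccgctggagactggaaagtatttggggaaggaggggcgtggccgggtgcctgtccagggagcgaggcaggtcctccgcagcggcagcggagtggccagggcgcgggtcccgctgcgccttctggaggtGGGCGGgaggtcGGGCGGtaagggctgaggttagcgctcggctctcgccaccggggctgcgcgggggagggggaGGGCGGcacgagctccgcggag
Mertk and Tyro3 hold 3 GC boxes each in these windows and Axl holds 1, and 32.7% of the 32851 RefSeq windows of this length hold at least 1. The GC content was 63.6% for Mertk, 60.0% for Axl and 73.2% for Tyro3, against a median of 52.4% over all windows. All 6 genes had a RefSeq window, and in none of them did either strand hold the palindromic glucocorticoid response element (AGAACA, 3 free bases, then its reverse complement TGTTCT), its single element AGAACA, the DR4 element of liver X receptors (AGGTCA, 4 free bases, then AGGTCA again), or the TATA box TATAAA; the single element is part of the palindrome. Those letters occur in 0.00913%, 16.1%, 0.0152% and 12.4% of all windows, in that order, and their absence says nothing of elements elsewhere.

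Levels are in FPKM, fragments counted per unit of transcript length and of sequencing depth, which allows levels of different genes to be set side by side. Between 13755 and 14826 loci per library exceeded 1 FPKM, and protein-coding loci summed to 397412 to 453923. FPKM carry no counts, so absolute depth is unknown. In 2 libraries loci without a gene name took most of the FPKM, 75.0% in male vehicle replicate 3 and 53.1% in male dexamethasone replicate 2, against 11.6% to 38.6% in the other 10. Xist, the X-inactivation RNA, stood at 136 to 328 in female libraries, at 14.1 in male dexamethasone replicate 2 and 3.04 in male vehicle replicate 2, and at no more than 0.0466 in the other 4 male libraries. The averaged and male effects of Mertk are given with and without such libraries. Of the other results only some are.

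Mertk, the receptor best known for engulfing apoptotic cells, rose under dexamethasone in male and in female cultures. In male vehicle libraries 1 to 3 it stood at 4.54, 6.19 and 3.73 FPKM, and in male dexamethasone libraries 1 to 3 at 23.8, 17.1 and 13.3. In female vehicle libraries it stood at 6.75, 3.60 and 5.54, and in female dexamethasone libraries at 24.8, 21.8 and 19.8. The lowest treated library lay well above the highest vehicle library, so the arms did not overlap in either sex; all 6 treated libraries lay above all 6 vehicle libraries at 1.41% of the loci tested. The means were 5.06 ± 1.31 FPKM under vehicle and 20.1 ± 4.36 under dexamethasone (SD, n = 6 each), a ratio of 3.97. Differences were tested with limma on log2(FPKM + 1), a scale that understates the change of low genes, over the 14931 loci averaging 1 FPKM or more, and called at a Benjamini-Hochberg adjusted p under 0.05. Averaged over the sexes, Mertk rose by 1.80 on that scale (SE 0.17, 95% interval 1.41 to 2.19, limma adjusted p = 0.000597). It was the only one of the 6 genes called, where 1.53% of all tested loci were called, 171 higher and 58 lower; with FPKM rescaled to the protein-coding sum these were 131 higher and 78 lower, while a fit blocked on replicate number gave 420 higher and 384 lower. Without male dexamethasone replicate 2 and male vehicle replicate 3, Mertk rose by 1.74 (limma adjusted p = 0.00928), and without both male libraries of replicate 2 by 1.89 (limma adjusted p = 0.00551). These are bulk libraries, in which a change in the number of cells carrying an RNA and a change in RNA per cell cannot be told apart.

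**Figure D1:**
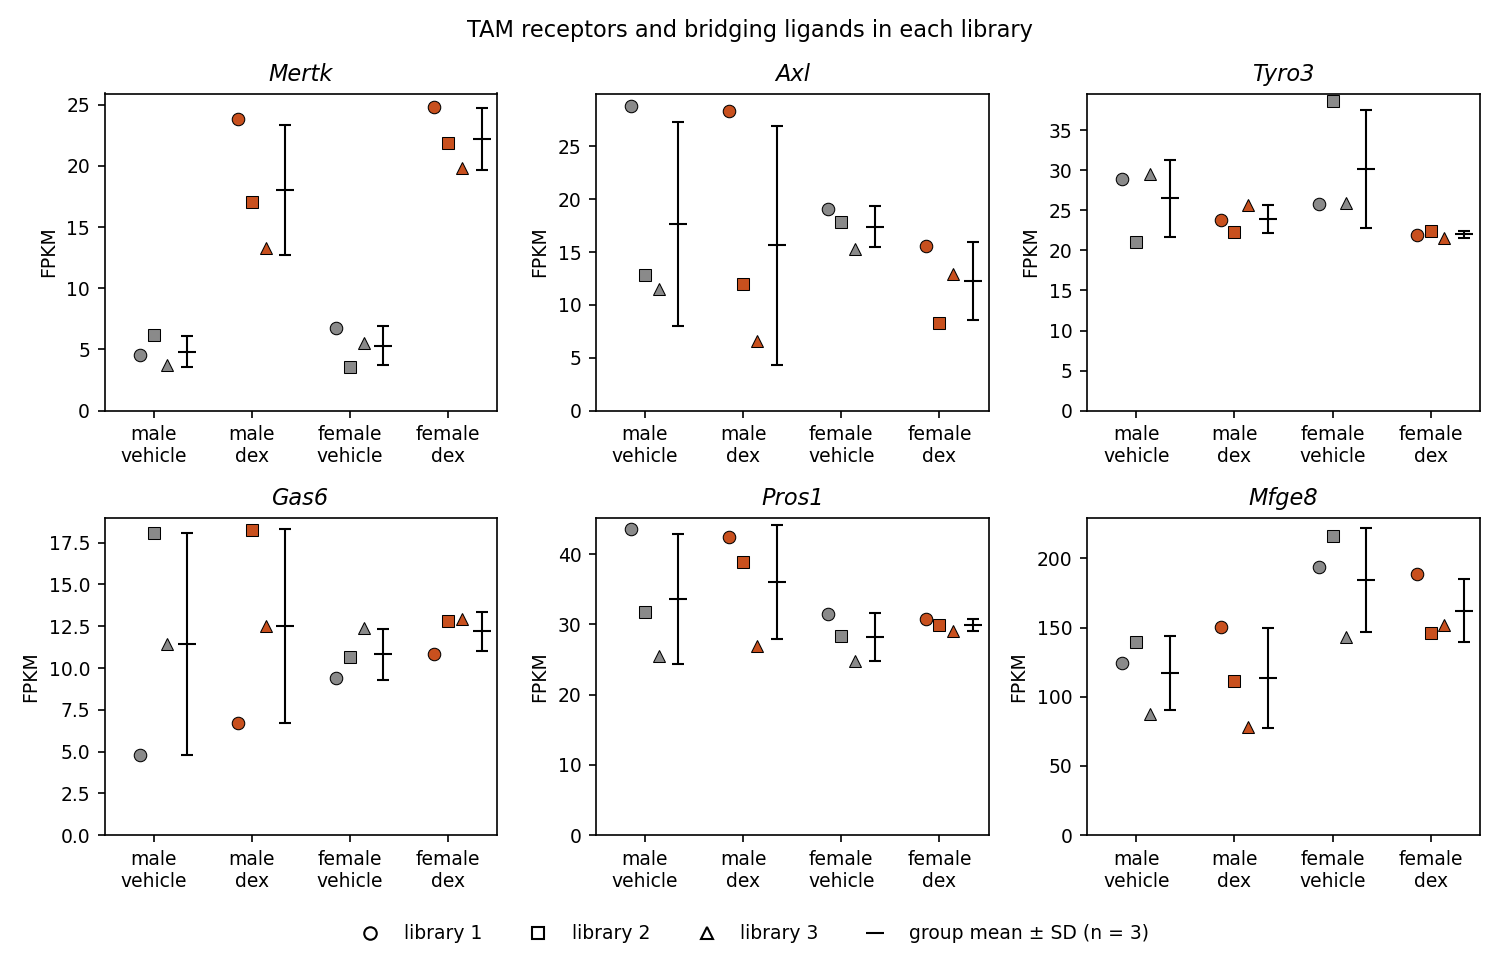
FPKM of Mertk, Axl, Tyro3, Gas6, Pros1 and Mfge8 in each of the 12 libraries, by sex and treatment, 1 point per library, with a bar at the mean and whiskers of ± 1 SD for each group of 3. Mertk is the gene whose vehicle (3.60 to 6.75) and dexamethasone (13.3 to 24.8) libraries do not overlap.

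The rise was called in the male and in the female comparison, both of which used the spread estimated from all 12 libraries. Male means went from 4.82 ± 1.25 to 18.0 ± 5.32 FPKM and female means from 5.30 ± 1.59 to 22.2 ± 2.52 (SD, n = 3 each). On the log2 scale Mertk rose by 1.69 in males (SE 0.25, limma adjusted p = 0.0199) and by 1.91 in females (SE 0.25, limma adjusted p = 0.00892). Of all loci tested, 0.315% were called in males and 0.482% in females (47 and 72 loci). Without male vehicle replicate 1, 2 or 3 the male count was 29, 28 or 31, and without female dexamethasone replicate 1, female dexamethasone replicate 3 or female vehicle replicate 3 the female count was 31, 45 or 38. The female minus male difference of these effects was 0.21 (95% interval −0.57 to 0.99, limma adjusted p = 1.00), an interval wide enough to hold a sizeable difference; none of the 6 genes was called there, where 0.0335% of all loci were. The calls within a sex rested on few libraries. With only male libraries fitted the male rise of 1.69 had a limma adjusted p of 0.186, and it lost its call without male dexamethasone replicate 1 (0.0667) or 2 (0.0814), or male vehicle replicate 1 (0.0946) or 3 (0.0899). With only female libraries fitted the limma adjusted p of the female rise was 0.0527, and without female dexamethasone replicate 1 it was 0.0569.

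Inside the Mertk locus lie 2 further annotated loci. Gm14011 is an antisense RNA on the opposite strand at chr2:128751271-128753705, and Gm23172 a small nucleolar RNA on the same strand at chr2:128780376-128780499. Gm14011 stood at 0, 0.0442 and 0.0767 FPKM in male vehicle libraries and 2.76, 2.34 and 1.07 in male dexamethasone libraries. It stood at 0.220, 0.139 and 0.401 in female vehicle libraries and at 1.47, 1.71 and 0.891 in female dexamethasone libraries. Its vehicle and treated libraries did not overlap either, but its mean of 0.927 FPKM fell below the minimum, so it was not tested. The share of 1.41% given above covers tested loci only, and none was computed for loci this low. The library kit keeps strand, but how the counting treated strand is not given. Whether the values keep reads of Mertk and of this antisense locus apart is therefore unknown. Gm23172 was listed at 0 in 5 of 6 vehicle libraries and in 1 of 6 treated ones, with a highest value of 66.2 under dexamethasone.

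The other 2 receptors, Axl and Tyro3, were not called. Axl, which binds Gas6, stood at 28.8, 12.8 and 11.5 FPKM in male vehicle libraries and 28.3, 12.0 and 6.59 in male dexamethasone libraries. In females it stood at 19.1, 17.8 and 15.3 under vehicle and 15.6, 8.29 and 12.9 under dexamethasone. The arms overlapped, with male replicate 1 highest in both, and the averaged difference was −0.39 (95% interval −1.14 to 0.36, limma adjusted p = 0.644). Tyro3 stood at 29.0, 21.0 and 29.5 FPKM in male vehicle libraries and 23.7, 22.2 and 25.7 in male dexamethasone libraries. In females it stood at 25.8, 38.7 and 25.9 under vehicle and 21.9, 22.5 and 21.6 under dexamethasone. The male groups overlapped and the female groups did not. The share of all tested loci whose groups do not overlap within a sex was not computed. The female separation therefore sets neither Tyro3 nor the female cultures apart. The averaged Tyro3 difference was −0.27 (95% interval −0.54 to −0.0078) with an unadjusted p of 0.0448 and a limma adjusted p of 0.352, and the female difference was −0.41 (limma adjusted p = 0.582). Neither was called, and the female minus male difference of the Tyro3 effect was −0.28 (95% interval −0.81 to 0.25).

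The balance among the 3 receptors shifted towards Mertk. Mertk made up 10.3% ± 3.70 of their summed FPKM under vehicle (range 6.00% to 15.5%) and 35.3% ± 4.86 under dexamethasone (29.1% to 41.5%; SD, n = 6 each). The share of Axl was 33.9% ± 7.10 under vehicle and 23.3% ± 8.18 under dexamethasone, and that of Tyro3 55.8% ± 7.87 and 41.5% ± 8.65. Shares sum to 100%, so a rise of one lowers the others; the summed receptor level itself was 50.9 ± 8.82 FPKM under vehicle and 57.0 ± 10.7 under dexamethasone, ranges that overlap. Under vehicle the order was Tyro3, Axl, Mertk in all 6 libraries. Under dexamethasone Mertk stood above Axl in 5 of 6 libraries, all but male replicate 1, and above Tyro3 in 2 of 6.

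**Figure D2:**
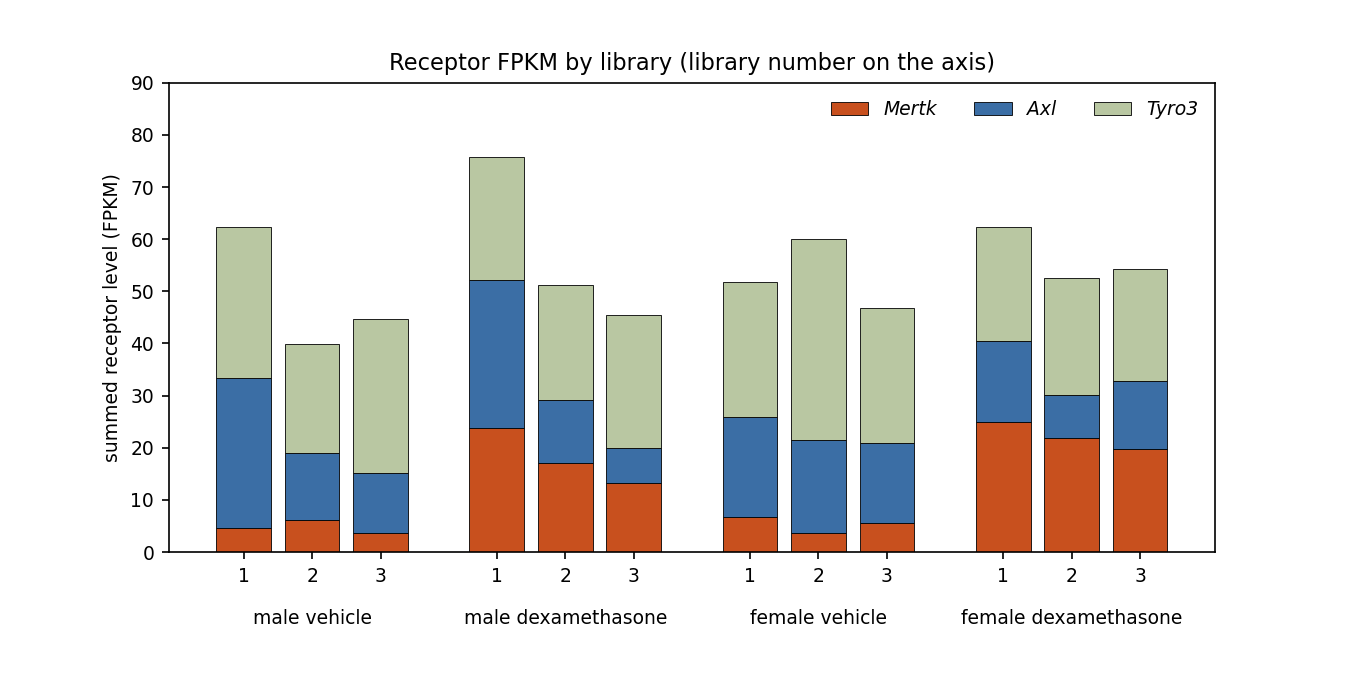
FPKM of Mertk, Axl and Tyro3, stacked in 1 bar per library, so that the height of a bar is their summed FPKM. Mertk takes 6.00% to 15.5% of the sum in vehicle libraries and 29.1% to 41.5% in dexamethasone libraries.

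None of the bridging ligands was called. Gas6 stood at 4.80, 18.1 and 11.4 FPKM in male vehicle libraries and 6.69, 18.3 and 12.5 in male dexamethasone libraries. In females it stood at 9.40, 10.6 and 12.4 under vehicle and 10.8, 12.8 and 12.9 under dexamethasone. The spread between male libraries exceeded any difference between the arms, which was 0.17 (95% interval −0.49 to 0.83, limma adjusted p = 0.827). Pros1, the other TAM ligand, stood at 43.7, 31.7 and 25.5 FPKM in male vehicle libraries and 42.4, 38.9 and 26.9 in male dexamethasone libraries. In females it stood at 31.5, 28.3 and 24.8 under vehicle and 30.7, 30.0 and 29.1 under dexamethasone. The arms overlapped and differed by 0.10 (95% interval −0.22 to 0.42, limma adjusted p = 0.796). Pros1 lay above Gas6 in all 12 libraries, by 1.75-fold to 9.09-fold, with the widest gaps in male vehicle replicate 1 (9.09) and male dexamethasone replicate 1 (6.34), where Gas6 was lowest.

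Mfge8 had the highest level of the 6 genes, and its female libraries averaged above its male ones, a difference that was not called after adjustment. It stood at 124, 139 and 87.2 FPKM in male vehicle libraries and 151, 111 and 78.3 in male dexamethasone libraries. In females it stood at 194, 216 and 143 under vehicle and 189, 146 and 152 under dexamethasone. The effect of dexamethasone was −0.12 (95% interval −0.53 to 0.29, limma adjusted p = 0.804). Male libraries ranged from 78.3 to 151 and female libraries from 143 to 216, ranges that overlap, and the female minus male difference was 0.61 (SE 0.18, 95% interval 0.20 to 1.01). Its unadjusted p was 0.00809 and its limma adjusted p 0.593, and with 0.107% of all loci called between the sexes none of the 6 genes was. For Mertk that difference was 0.21 (limma adjusted p = 0.757).

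**Figure D3:**
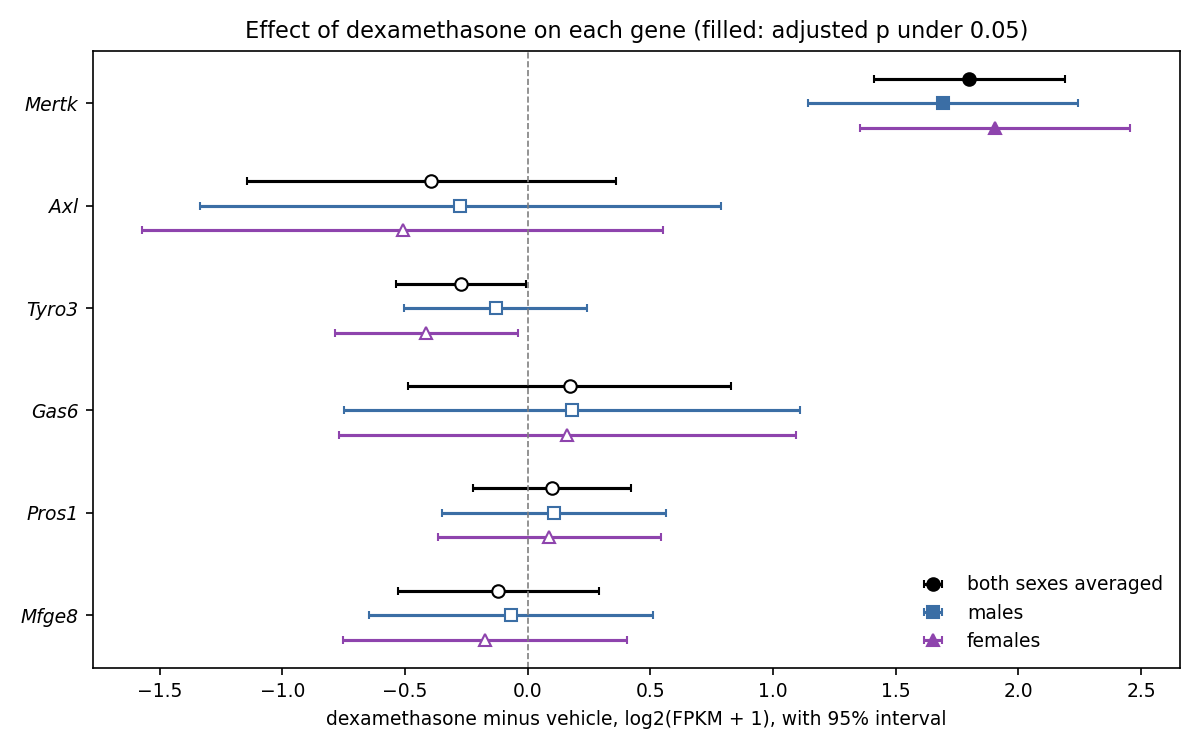
Effect of dexamethasone on the log2(FPKM + 1) scale with 95% intervals for the 6 genes, averaged over the sexes, in males and in females. The 3 Mertk intervals lie above 0, with an averaged effect of 1.80; the averaged intervals of Axl, Gas6, Pros1 and Mfge8 include 0, and that of Tyro3 ends at −0.0078.

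The wider machinery of apoptotic cell uptake was described from lists of other genes, whose members at the highest levels are named with every member called. Of 27 other receptors for apoptotic cells and their ligands 15 reached the minimum level and 0 were called by limma in the averaged comparison (1 at an unadjusted p under 0.05); their median effect was 0.04, against −0.0067 over all loci. The highest mean levels among them belonged to Calr, the eat-me signal calreticulin (396 FPKM), Stab1 (86.8, at a locus that shares its coordinates with Nt5dc2), and the integrin subunits Itgav (69.1) and Itgb5 (61.7), through which Mfge8 acts. Of 20 genes of the engulfment machinery 16 were tested, 3 rose and 0 fell, where 1.15% of all loci were called higher, and the median effect was 0.0027. Elmo1, part of the ELMO-DOCK exchange factor that switches on Rac, ranged from 4.39 to 8.02 FPKM under vehicle (median 5.96) and from 8.97 to 12.5 under dexamethasone (median 11.2). Elmo1 rose by 0.80 (SE 0.14, limma adjusted p = 0.0173) with no overlap between the arms, and lost its call without female dexamethasone replicate 2 (limma adjusted p = 0.0555), without male dexamethasone replicate 2 and male vehicle replicate 3 (0.0907) and without both male libraries of replicate 2 (0.116). Pik3r1, a regulatory subunit of PI3 kinase, ranged from 36.2 to 60.8 FPKM under vehicle and from 82.9 to 109 under dexamethasone, and rose by 0.91 (limma adjusted p = 0.0106). Pik3r1 lost its call without male dexamethasone replicate 2 and male vehicle replicate 3 (limma adjusted p = 0.0852) and without both male libraries of replicate 2 (0.0504). Vav2, an exchange factor for Rac, rose by 0.56 (limma adjusted p = 0.0349) with overlapping arms, and lost this call in 13 of 24 alternative analyses. The small GTPases Cdc42 (320 FPKM) and Rac1 (207), the kinase Akt1 (108) and Vav3 (90.4) stood highest in this list and were not called.

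Of the genes around the receptor itself 1 passed the test. Of 10 tested genes of receptor shedding, vitamin K carboxylation and feedback 0 were called by limma (3 at an unadjusted p under 0.05), with a median effect of −0.08; Adam17, the protease that sheds Mertk, had a mean of 34.3 FPKM and an effect of 0.04, and Adam10, another shedding protease, 25.1 FPKM and −0.43 (limma adjusted p = 0.270). Of 10 tested genes of phosphatidylserine exposure and opposing signals 1 fell, where 0.388% of all loci were called lower, and the median effect was 0.03. That gene was Ano6, a scramblase that exposes phosphatidylserine, at 25.3 to 29.4 FPKM under vehicle and 19.7 to 23.0 under dexamethasone, with no overlap, as at 0.804% of all loci in this direction. Ano6 fell by 0.33 on the log2 scale (limma adjusted p = 0.0208), and lost this call in 9 of 24 alternative analyses. Of 6 tested nuclear receptors known to act on Mertk in other cells 0 were called (1 at an unadjusted p under 0.05), with a median effect of 0.16. Rxra, the shared partner of several of them, had an effect of 0.72 (limma adjusted p = 0.145), and Nr3c1, the glucocorticoid receptor itself, stood at 18.2 FPKM with an effect of −0.20 (limma adjusted p = 0.375). Within males and within females limma called 0 genes of these lists; at an unadjusted p under 0.05 the counts, in the order of the lists above, were 0, 2, 1, 1 and 1 in males and 0, 4, 1, 2 and 1 in females.

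**Figure D4:**
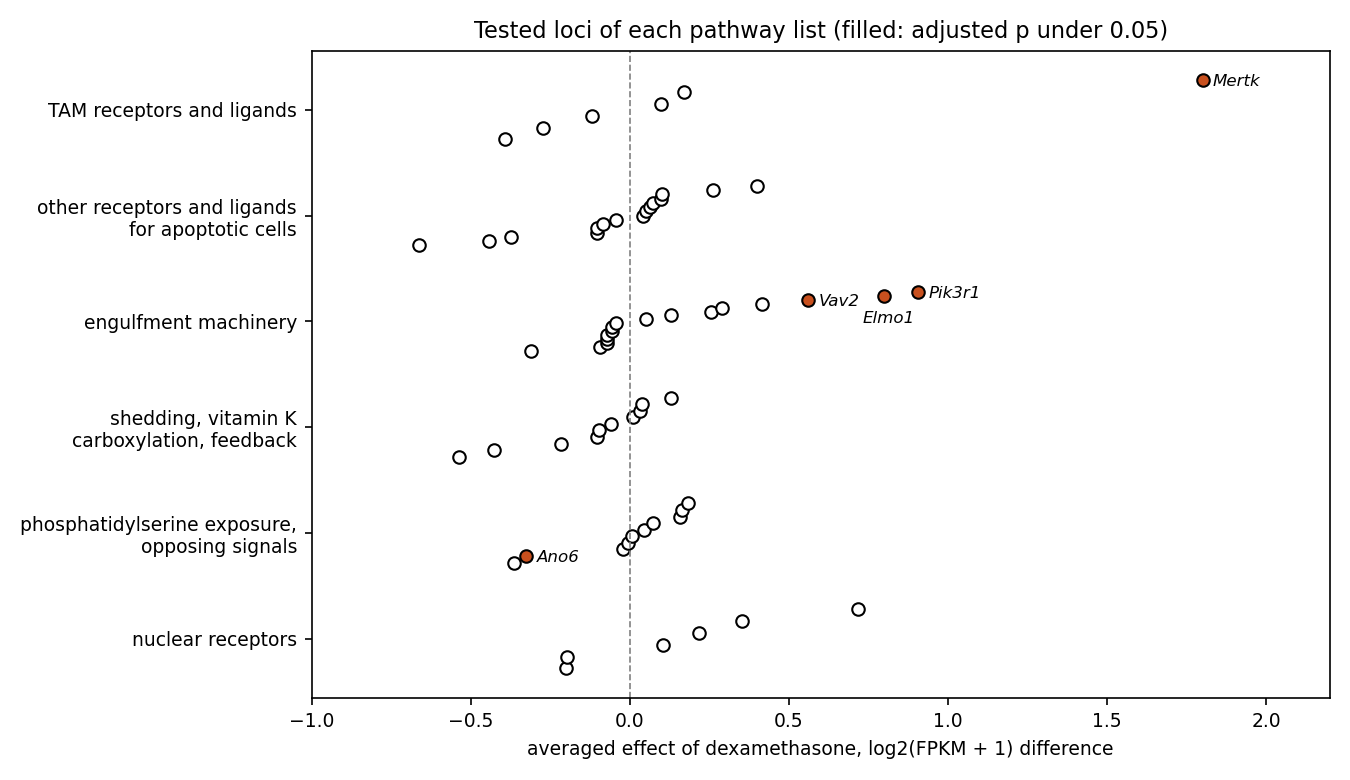
Averaged effect of dexamethasone on the log2(FPKM + 1) scale for the tested genes of each list, 1 point per gene, with called genes named. Mertk (1.80) lies above every other gene of these lists; Elmo1 (0.80), Pik3r1 (0.91) and Vav2 (0.56) rose and Ano6 (−0.33) fell.

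Mertk is known from microglia and macrophages as well as from astrocytes, so markers of the cell types a neurosphere could hold were read beside it. Of 20 microglial and macrophage markers 2 reached 1 FPKM on average, among them the lysosomal gene Cd68 (1.33), and 0 were called by limma in the averaged comparison (0 at an unadjusted p under 0.05). C1qa, C1qb and C1qc were listed at 0 in every library and Cx3cr1 reached at most 0.137, so the defining markers of these cells were at or near 0 in every group. The summed level of the list was 10.2 to 15.0 FPKM in male vehicle, 11.7 to 17.2 in male dexamethasone, 12.7 to 19.5 in female vehicle and 12.6 to 19.2 in female dexamethasone libraries. All 10 markers of neural stem cells and radial glia were present and 0 were called by limma, with 2 at an unadjusted p under 0.05 in the averaged comparison. These were Sox9, with an effect of −0.76 (limma adjusted p = 0.0912), and Sox2, with −0.42 (limma adjusted p = 0.0915), both singled out after their values were seen; their part in the Mertk result was not tested. Of 9 astrocytic markers 1 was called, where 1.15% of all loci were called higher. Glul, glutamine synthetase, rose by 1.16 (limma adjusted p = 0.0291), at a locus joined to another gene and with overlapping arms. Glul lost this call in 11 of 24 alternative analyses. The summed astrocytic level was 558 to 1291 FPKM in male vehicle, 799 to 2206 in male dexamethasone, 915 to 2298 in female vehicle and 1326 to 2176 in female dexamethasone libraries, and its part in the Mertk result was not tested. Of 8 endothelial markers 1 reached the minimum and was not called. Of 9 mural and fibroblast markers 2 did, and 1 was called, against the same 1.15% of all loci. This was Cspg4, the NG2 proteoglycan also found on oligodendrocyte precursors, which rose by 0.76 (limma adjusted p = 0.0114). The other, Acta2 (27.9 FPKM), had an effect of −0.11 (limma adjusted p = 0.877). The summed mural and fibroblast level was 30.5 to 56.4 FPKM in male vehicle, 43.3 to 62.7 in male dexamethasone, 38.1 to 44.6 in female vehicle and 41.5 to 54.7 in female dexamethasone libraries, while Pdgfrb reached at most 0.0346 and Lum was listed at 0 in all 12.

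The genes whose pattern over the 12 libraries was most like that of Mertk were ranked by Pearson's r of log2(FPKM + 1) among 10636 named protein-coding loci, as a description; the libraries share a treatment split. They were Errfi1 (r = 0.989), Lgalsl (0.987), Nedd9 (0.986), Sap30 (0.983), Mbnl2 (0.983), Lfng (0.981), Ptk2b (0.974) and Rhoj (0.971). Errfi1, a feedback inhibitor of EGF receptor signalling, went from a mean of 5.34 FPKM under vehicle to 16.7 under dexamethasone, and Nedd9, a scaffold of focal adhesion signalling, from 3.81 to 18.1. Ptk2b, a kinase related to focal adhesion kinase, went from 0.909 to 10.6. The closest genes to Axl were Nid1 (0.927), Cmtm6 (0.896) and Pllp (0.893), and among those closest to Tyro3 were Ephb3 (0.905) and Tcf7l2 (0.900). For Gas6 they were Nwd1 (0.915), Atp8a1 (0.896) and Fam81a (0.895), for Pros1 Cacng5 (0.937), Snx7 (0.927) and Sbno2 (0.918), and for Mfge8 Enpp2 (0.974), Pea15a (0.966) and Chst10 (0.964). None of the genes named here for these other 5 members was called.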

How the data were processed

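RNA was sequenced from 12 neurosphere libraries made with a stranded total RNA kit and run on 2 lanes, per the labels. The authors deposited FPKM values for 40597 loci, 37937 with a gene name and 930 joining several genes. Per the submitters' processing notes, TopHat2 2.0.9, Cufflinks 2.2.1 and Cuffdiff 2.2.1 were used on GRCm38. The annotation release, how strand was treated and how libraries were scaled are not given. Groups come from the sample titles. The 14931 loci averaging 1 FPKM or more entered limma 3.58.1 (R 4.3.3) as log2(FPKM + 1), with 1 mean per group over all 12 libraries, a mean-variance trend, two-sided tests and Benjamini-Hochberg adjustment; every adjusted p in the text is limma's. Named genes are all 6 members, every called gene of a list, up to 4 others of it by highest mean FPKM, and the closest genes by correlation (8 for Mertk, 3 for the others); a few genes that this rule takes in are not reported here. The members and lists were chosen with earlier results of these data known. Coordinates and overlaps are from GENCODE M21, counted from 1. The code was tested on simulated data. Alternatives varied the replicate term, pseudocount, filter, scaling, variance model and libraries.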

Additional observations from a re-analysis of the deposited data

How the results depend on the processing

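Mertk kept its direction and call in the averaged comparison in all 24 alternatives (limma adjusted p 0.000343 to 0.00928), and it was the 1 of 6 members called in each. The replicate numbers pair no libraries by the labels. Same-numbered libraries of a sex deviated together with r of 0.0819 to 0.167, not all above 0.1, each above r with other numbers. Deviations were taken from the mean of each group of 3, so a positive r with the same number pushes r with other numbers down. Part of this gap is therefore built in, and the r values are not independent. With the number as a replicate block, limma called 804 loci averaged (420 higher, 384 lower) against 229 (171 and 58), 148 against 47 in males and 187 against 72 in females. Mertk stayed called under the block (limma adjusted p 0.00418, 0.0332 and 0.0228), with effects of 1.80, 1.69 and 1.91. Within males, 0 members were called and Mertk missed the threshold with only male libraries (1.69), without male dexamethasone replicate 2 and male vehicle replicate 3 (1.57) and without both male libraries of replicate 2 (1.88). Leaving out 1 library at a time gave male effects of 1.49 to 1.88 and 0 to 1 members called. Within females, 0 members were called with only female libraries (1.91); leaving out 1 library gave 1.70 to 2.07 and 0 to 1 members. Fewer samples enter these fits, and the causes were not otherwise tested. With 1 library left out, some uncalled members changed sign, though Pros1 averaged over the sexes and Tyro3 in males kept theirs. The ranges were −0.0635 to 0.366 for Gas6, 0.00943 to 0.198 for Pros1 and −0.234 to 0.000256 for Mfge8 averaged over the sexes. In males they were −0.796 to 0.179 for Axl, −0.284 to −0.0473 for Tyro3, −0.289 to 0.571 for Gas6, −0.0694 to 0.308 for Pros1 and −0.294 to 0.173 for Mfge8. Without male dexamethasone replicate 2 and male vehicle replicate 3, signs turned for Pros1 averaged (−0.0233) and, in males, for Tyro3 (0.00097), Gas6 (−0.0453) and Pros1 (−0.135); without both male libraries of replicate 2 the male Mfge8 effect was 0.0606. Scaling to the protein-coding sum gave a female Pros1 effect of −0.00242. Loci called fell to 21 with only male and 27 with only female libraries, and to 114 averaged and 19 male without male dexamethasone replicate 2 and male vehicle replicate 3. They fell to 104 and 14 without both male libraries of replicate 2. Without female dexamethasone replicate 1 the averaged count was 146. Interaction calls were 5, and 8 with the replicate block; without female vehicle replicate 1 they were 14, the most with 1 library left out, and calls between the sexes were then 28 against 16. Array weights gave 95 male calls. FPKM give no counts, so depth sets a limit on low genes that could not be computed.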

Other observations

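Libraries with the same replicate number and sex are not said by the labels to share a culture, so the ratios between them are values only. The dexamethasone to vehicle ratio of FPKM was above 1 in 6 of 6 such comparisons for Mertk (2.76 to 6.06) and for Gas6 (1.01 to 1.39), and below 1 in 6 of 6 for Axl (0.466 to 0.984). It was below 1 in 5 of 6 for Tyro3 and in 4 of 6 for Mfge8, and above 1 in 4 of 6 for Pros1. The share of all tested loci with 6 of 6 ratios on 1 side was not computed, so these counts set no gene apart. With the number as a block limma called neither Axl (adjusted p = 0.176), Tyro3 (adjusted p = 0.146) nor Gas6 (adjusted p = 0.172) in the averaged comparison.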
